A study of Mus musculus with 6 samples.

Results

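The genes described here carry glucose to lactate or to the mitochondrion: 37 mouse genes for glucose uptake, the steps of glycolysis, lactate formation and transport, the enzymes that set glycolytic flux through effectors, the entry of pyruvate into mitochondria, and the transcription factor Hif1a. They were chosen by symbol from a list. All 37 have a symbol in the count tables and all 37 passed the filter on low counts, among 12928 genes kept of 49315 in the tables. The cells were CD4 T cells from C57BL/6 mice that carry the CBir1 T-cell receptor transgene, which recognises a flagellin of commensal gut bacteria, and RNA sequencing gave 1 library for each of 6 conditions. For 5 of the libraries, C57BL/6 mice with the CD45.2 allele received 2000000 transgenic CD45.1 CD4+ cells without surface CD44 on day 0 and were immunised with 50 ug of CBir1 flagellin plus 1 ug of CT on days 1 and 7. In 4 of these groups the mice were then given 3 ug of MEP1, a multi-epitope peptide, on days 28 and 35, each time followed by 5 days of injections. The injections held the vehicle CMC (labelled MEP1+CMC), metformin (MEP1+Metformin), rapamycin (MEP1+Rapamycin) or both inhibitors (MEP1+Metformin+Rapamycin). The No treatment group received no MEP1 and no injection in that period. All 5 groups were challenged with 3 ug of MEP1 on day 56, per the labels, and spleen was taken on day 63 to sort what donor cells remained. The sixth library, the naive CD4 control, is labelled as naive CBir1 transgenic CD4 cells from spleen with no transfer described. The sources used here do not give inhibitor doses, the sex and age of the mice or the number of mice behind a library.

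Glycolysis splits glucose into pyruvate in the cytosol and yields a small amount of ATP. Pyruvate is then reduced to lactate, which leaves the cell and restores the NAD+ that glycolysis consumes, or is imported into the mitochondrion and oxidised by the pyruvate dehydrogenase complex. Activated T cells raise glucose uptake and lactate output, a programme in which mTOR complex 1, Myc and HIF-1 take part, and naive and resting memory cells rely more on oxidation. Rapamycin inhibits mTOR complex 1, and metformin limits mitochondrial respiration. The study asked how microbiota-specific memory cells differ after antigen is given together with such inhibitors, an approach its title names CAMCI.

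Several properties of the libraries bear on every comparison. Total counts ranged from 26139000 in the naive control to 60622310 in No treatment, and ribosomal RNA-like loci took 15.4% of the naive control's counts 3.13% of those of MEP1+Rapamycin and 1.00% to 1.28% of the others. The 11 CD4 T-cell markers summed to 8689 to 10937 TMM CPM (counts per unit of library size, CPM, with library sizes corrected by the trimmed mean of M values) and none was at 0 in any library. The 15 macrophage and monocyte markers summed to 3424 TMM CPM in No treatment, 661 to 890 in the 4 libraries given MEP1 on days 28 and 35 and 292 in the naive control, with 2 of the 15, Cd14 and Fcgr1, at 0 in the naive control. The 8 B cell markers summed to 110.1 TMM CPM in the naive control, 67.7 in MEP1+Metformin+Rapamycin and 12.6 to 23.5 in the other libraries, none at 0. The 6 neutrophil markers summed to 0.0827 TMM CPM in No treatment, where 3 were at 0, and 0.655 to 13.0 in the others. The 7 CD8 T cell and NK cell markers summed to 114 TMM CPM in No treatment, where Tyrobp alone stood at 106. They summed to 32.0 to 51.7 in the 4 libraries given MEP1 on days 28 and 35. In the naive control they summed to 37.7, with 3 at 0. The Y-linked Ddx3y, Eif2s3y, Uty and Kdm5d stood at 27.0 to 95.9 TMM CPM in the 3 libraries given an inhibitor, at 8.05 to 34.2 in No treatment, which also held Xist at 23.0, and at 0 to 0.374 in MEP1+CMC and the naive control. Sex and treatment therefore cannot be told apart in any of the 7 pairs of libraries compared except the pairs of MEP1+Metformin+Rapamycin with MEP1+Metformin or with MEP1+Rapamycin. The models fitted across libraries below share this limit. MEP1+CMC, with Xist at 257, is the only library with almost no Y-linked counts behind the rapamycin and metformin terms. In the other models the naive control or No treatment stands alone on its side. One header disagrees with the labels: the counts of No treatment sit under a column name that says no challenge. The labels and the protocol say challenged, and they were followed here. The part of these differences in the results below was not tested.

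Per exonic length, on the RPKM scale averaged over the 6 libraries, lactate dehydrogenase A (Ldha) was the most abundant at 379, rank 133 of the 12928 genes kept. Gapdh followed at 265, aldolase A (Aldoa) at 215, pyruvate kinase (Pkm) at 198 and enolase 1 (Eno1) at 178. Genes that act at the entry of glucose were lower: hexokinase 1 (Hk1), which phosphorylates glucose, stood at 20.2 and the main glucose transporter, Slc2a1, at 18.9. The 6 least abundant members, all under 1 RPKM, were Aldoc, Pfkfb1, Slc16a3, Pfkfb2, Hk2 and Eno2. The 37 genes together took 0.651% of the counts in the naive control, the lowest share, and 0.805% in No treatment, the highest. Of the counts of genes kept without the ribosomal RNA-like loci, they took 0.771% in the naive control and 0.815% in No treatment. After TMM scaling the naive control was instead the highest. Their summed level was 9082 TMM CPM in the naive control, 8071 in No treatment, 7187 in MEP1+CMC and 6188 to 6573 with an inhibitor. Of the 37, 14 have pseudogene copies with at least 90% identity over at least 50% of the copy's length, 186 of them copies of Gapdh, and how reads that fit several places were counted was not given in the sources used here. Mpc1 is the most exposed, since its copies held 14.1% to 17.6% of the joint counts, against at most 5.16% for any other member.

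**Figure D1:**
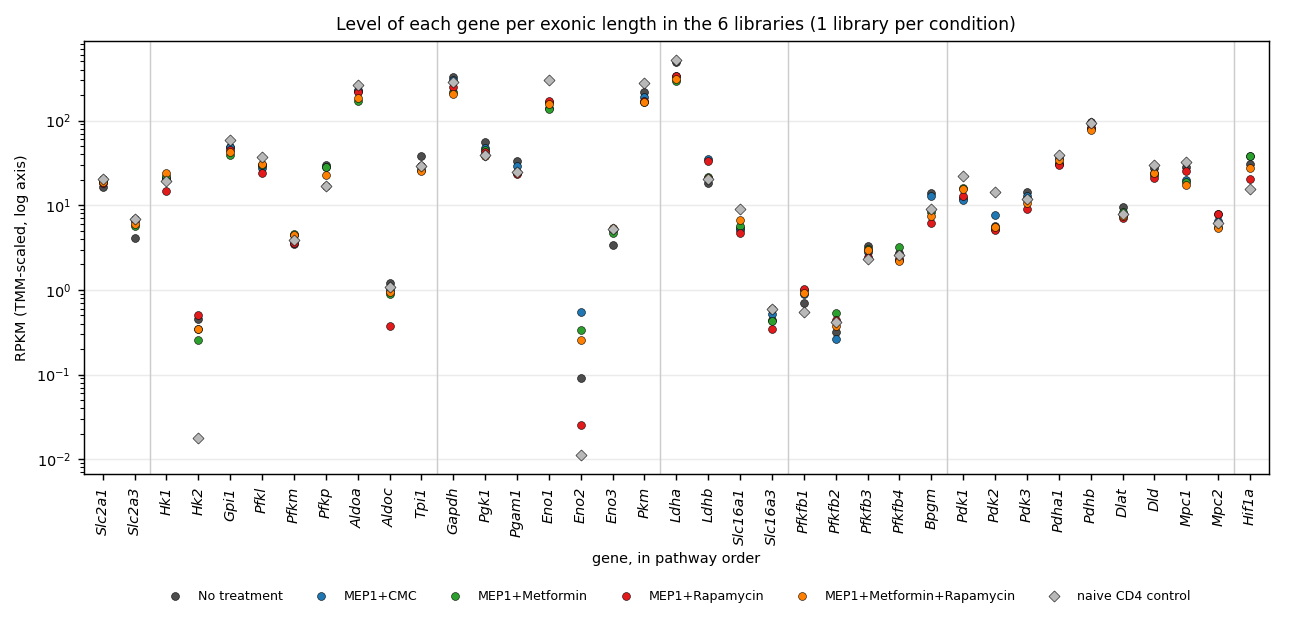
Level of each of the 37 genes per exonic length (RPKM, log axis) in pathway order, with 1 point per library and the naive control as diamonds. Ldha, Gapdh, Aldoa, Pkm and Eno1 are highest in every library, and Hk2 and Eno2 are lowest in the naive control.

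Many of these steps are run by alternative isozymes, and the share of each among the listed members of its family depends on no scaling between libraries. Lactate dehydrogenase is a tetramer of A and B chains, and Ldhb encodes the B chain, associated with conversion of lactate back to pyruvate. Ldhb made up 3.82% in the naive control, 3.66% in No treatment, 9.41% in MEP1+CMC, 6.89% in MEP1+Metformin, 8.94% in MEP1+Rapamycin and 6.32% in MEP1+Metformin+Rapamycin of the family's reads per exonic length. The share of Ldhb was low in the naive control and No treatment and higher in all 4 libraries given MEP1 on days 28 and 35. Within those 4 it was lower in both libraries given metformin than in both without it. The ratio of Ldhb to Ldha per length was 0.0379 (0.0362 to 0.0398) in No treatment, with the exact 95% counting interval in parentheses, 0.104 (0.1002 to 0.108) in MEP1+CMC, 0.0740 (0.0705 to 0.0777) in MEP1+Metformin, 0.0982 (0.0936 to 0.103) in MEP1+Rapamycin and 0.0675 (0.0644 to 0.0707) in MEP1+Metformin+Rapamycin. These intervals cover counting error only, and no condition has a second library.

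Phosphofructokinase, which commits glucose carbon to glycolysis, has liver (Pfkl), muscle (Pfkm) and platelet (Pfkp) forms. The platelet form Pfkp took 29.6% in the naive control, 47.3% in No treatment, 47.0% in MEP1+CMC, 45.1% in MEP1+Metformin, 37.9% in MEP1+Rapamycin and 39.3% in MEP1+Metformin+Rapamycin. Pfkl took 63.6% in the naive control, 47.2% in No treatment, 45.7% in MEP1+CMC, 47.6% in MEP1+Metformin, 54.1% in MEP1+Rapamycin and 53.0% in MEP1+Metformin+Rapamycin. Per exonic length, Pfkl led clearly in the naive control and led again in both libraries given rapamycin. Both forms were near level in No treatment, MEP1+CMC and MEP1+Metformin. Which form leads depends on the division by length. The reads of Pfkp and Pfkl were 3000 and 3020 in the naive control and 17027 and 7939 in No treatment. They were 5406 and 3603 in MEP1+Rapamycin and 12164 and 7662 in MEP1+Metformin+Rapamycin. The ratio of Pfkp to Pfkl per length was 0.465 (0.442 to 0.489) in the naive control, 1.03 (1.0 to 1.06) in MEP1+CMC, 0.947 (0.919 to 0.975) in MEP1+Metformin, 0.702 (0.673 to 0.732) in MEP1+Rapamycin and 0.743 (0.722 to 0.764) in MEP1+Metformin+Rapamycin. The counting intervals of the 2 rapamycin libraries lie below those of the 2 others given MEP1 on days 28 and 35. Pfkm held 5.52% to 7.98% in every library.

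Hexokinase 2 (Hk2) is the inducible form that activated T cells raise. It held 0.0919% in the naive control, 2.12% in No treatment, 1.68% in MEP1+CMC, 1.14% in MEP1+Metformin, 3.26% in MEP1+Rapamycin and 1.43% in MEP1+Metformin+Rapamycin of the reads per length of Hk1 and Hk2 together, so that Hk1 held at least 96.7% of this pair. The shares leave out Hk3, a myeloid hexokinase outside the 37, which stood at 1.17 TMM CPM in the naive control, 9.91 in No treatment and 2.89 to 5.44 in the other libraries. The kinases that shut off pyruvate dehydrogenase also differed in their mix. Pdk1, a known HIF-1 target, took 45.9% in the naive control, 37.7% in No treatment, 35.6% in MEP1+CMC, 48.5% in MEP1+Metformin, 47.7% in MEP1+Rapamycin and 49.2% in MEP1+Metformin+Rapamycin. Pdk2 took 29.5% in the naive control, 17.5% in No treatment, 24.2% in MEP1+CMC, 15.7% in MEP1+Metformin, 18.7% in MEP1+Rapamycin and 17.4% in MEP1+Metformin+Rapamycin, and Pdk3 took 24.6% in the naive control, 44.8% in No treatment, 40.2% in MEP1+CMC, 35.8% in MEP1+Metformin, 33.7% in MEP1+Rapamycin and 33.3% in MEP1+Metformin+Rapamycin. Per exonic length, Pdk3 was the leading kinase in No treatment and MEP1+CMC and the least abundant in the naive control. Pdk1 led in the naive control and in the 3 libraries given an inhibitor. In reads not divided by length, Pdk1 led in every library. It then held 63.3% against 24.8% for Pdk3 in No treatment and 60.7% against 22.6% in MEP1+CMC. Of the reads per length of the glucose transporters Slc2a1 and Slc2a3 together, the high-affinity Slc2a3 held from 20.0% in No treatment to 27.0% in MEP1+CMC. Slc2a8, at 14.4 to 27.8 TMM CPM, and Slc2a6 were also kept and are outside these shares. In 3 families the same listed member held most reads throughout: Aldoa held 99.5% to 99.8% of aldolase, Eno1 96.1% to 98.3% of enolase and Slc16a1, a proton-linked lactate carrier, 90.9% to 93.7% of Slc16a1 and Slc16a3. Pfkfb3 (39.3% to 47.1%) and Pfkfb4 (34.3% to 44.3%), which make the activator fructose 2,6-bisphosphate, led their family, with Pfkfb1 and Pfkfb2 behind.

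**Figure D2:**
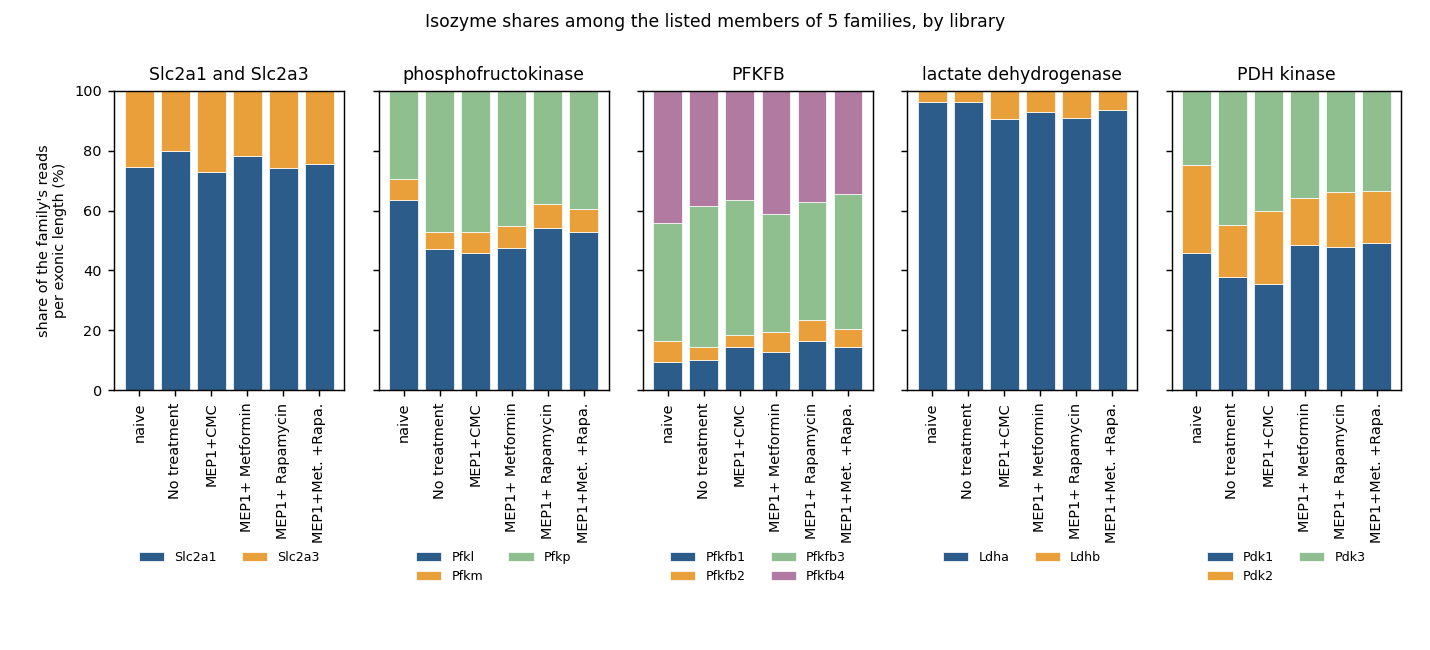
Share of each isozyme in the reads per exonic length of the listed members of its family (%), as stacked bars for the 6 libraries, for the glucose transporters Slc2a1 and Slc2a3 and the phosphofructokinase, PFKFB, lactate dehydrogenase and pyruvate dehydrogenase kinase (PDH kinase) families. Pfkp is 29.6% in the naive control and 47.3% in No treatment, and Ldhb is highest in MEP1+CMC at 9.41%.

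Promoters are shown for the forms of lactate dehydrogenase and phosphofructokinase whose ratios are given above, and for Hk2, which the test of transferred against naive cells called higher. Each sequence is the 250 bases before a RefSeq transcription start on GRCm38.p6, read 5′ to 3′ in the gene's direction. Capitals mark matches, on either strand, to the hypoxia response element cores ACGTG and GCGTG or to the E-box CACGTG, which holds ACGTG on both strands. Ldha is at chr7:46845554-46845803, plus strand, Ldhb at chr6:142507958-142508207, minus strand, Pfkl at chr10:78009808-78010057, minus strand, Pfkp at chr13:6648772-6649021, minus strand and Hk2 at chr6:82774455-82774704, minus strand.
Ldha: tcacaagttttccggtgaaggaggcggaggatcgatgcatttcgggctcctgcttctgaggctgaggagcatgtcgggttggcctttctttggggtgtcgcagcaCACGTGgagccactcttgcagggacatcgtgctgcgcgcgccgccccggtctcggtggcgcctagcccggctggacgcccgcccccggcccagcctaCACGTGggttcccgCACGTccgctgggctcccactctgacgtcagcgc
Ldhb: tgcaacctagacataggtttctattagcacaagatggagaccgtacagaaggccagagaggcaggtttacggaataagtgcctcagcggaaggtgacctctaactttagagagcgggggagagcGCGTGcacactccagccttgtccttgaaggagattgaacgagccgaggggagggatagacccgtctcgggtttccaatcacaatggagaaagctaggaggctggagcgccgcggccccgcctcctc
Pfkl: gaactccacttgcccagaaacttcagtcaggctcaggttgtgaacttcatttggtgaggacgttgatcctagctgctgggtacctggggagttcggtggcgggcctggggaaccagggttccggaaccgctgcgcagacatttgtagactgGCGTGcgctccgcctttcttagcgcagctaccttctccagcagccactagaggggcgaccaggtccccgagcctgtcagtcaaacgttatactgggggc
Pfkp: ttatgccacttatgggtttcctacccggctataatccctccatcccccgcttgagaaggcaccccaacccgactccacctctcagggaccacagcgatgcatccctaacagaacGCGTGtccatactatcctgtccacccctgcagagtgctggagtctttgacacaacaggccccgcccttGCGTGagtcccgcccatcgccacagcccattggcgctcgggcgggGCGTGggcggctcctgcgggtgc
Hk2: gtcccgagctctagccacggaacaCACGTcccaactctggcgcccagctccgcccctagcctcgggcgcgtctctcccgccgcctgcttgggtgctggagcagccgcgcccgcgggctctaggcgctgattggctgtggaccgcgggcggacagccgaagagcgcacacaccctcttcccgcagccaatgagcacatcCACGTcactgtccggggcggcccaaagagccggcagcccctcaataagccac
The Ldha window holds 5 ACGTG matches, 4 of which belong to its 2 E-boxes, and no GCGTG. Ldha has another listed start, whose window at chr7:46846832-46847081 holds no ACGTG and 1 GCGTG. The Ldhb and Pfkl windows hold 1 GCGTG each, that of Pfkp holds 3, and that of Hk2 holds 2 ACGTG. Promoters were listed for 36 of the 37 genes, in 56 windows. At least 1 of the cores was present in 71.4% of these windows, in 55.6% of 11650 windows of the genes kept and in 38.6% of all 32851 windows of that length. The E-box was present in 12.5%, 8.28% and 6.02% of the same 3 sets. A match describes letters only, and binding was not measured.

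The first contrast asks how transferred, antigen-experienced cells differ from naive cells, and here most of the pathway differed little. In No treatment against the naive control, 3 of the 37 genes passed a size rule of at least 2-fold with a counting interval that excludes no change, against 24.0% of all genes tested. Hk2 and Eno2 were higher and Pdk2 lower. The median log2 ratio of the 37 was -0.08, beside 0.03 over all genes. When the 5 transferred libraries together were set against the naive control in edgeR's quasi-likelihood test, 3 of 37 genes were called at a Benjamini-Hochberg adjusted p below 0.05, against 18.3% of all genes: Hk2 rose, and Eno1 and Pdk2 fell.

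Hk2 (chr6:82725025-82774454, minus strand, outer exon bounds on GRCm38) had 2 counts in the naive control and 76 to 163 in the others. Its level was 0.107 in the naive control, 2.70 in No treatment, 2.06 in MEP1+CMC, 1.51 in MEP1+Metformin, 2.98 in MEP1+Rapamycin and 2.07 in MEP1+Metformin+Rapamycin TMM CPM. The naive control lies below all 5 transferred libraries, whose levels span from 1.51 to 2.98. The log2 ratio of No treatment to the naive control was 4.66 (2.78 to 7.72), and the model across all 5 gave 4.37 (SE 0.92, adjusted p 0.017). Hk2 is low in all libraries, and macrophages, whose markers were higher in the transferred libraries, also express it. The macrophage and monocyte markers summed to 3424 TMM CPM in No treatment and 688 in MEP1+Rapamycin, where Hk2 was highest. In the naive control they summed to 292. Their part in the Hk2 difference was not tested.

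Enolase 1, which forms phosphoenolpyruvate and is by far the main enolase here, went the other way. Eno1 (chr4:150236721-150248879, plus strand) stood at 1624 in the naive control, 887 in No treatment, 759 in MEP1+CMC, 730.3 in MEP1+Metformin, 909 in MEP1+Rapamycin and 833 in MEP1+Metformin+Rapamycin TMM CPM. All 5 transferred libraries lay below the naive control, and the model gave a log2 fold change of -0.98 (SE 0.21, adjusted p 0.017). Pdk2 (chr11:95026258-95041354, minus strand), a kinase that inhibits pyruvate dehydrogenase, stood at 44.8 in the naive control, 17.8 in No treatment, 24.5 in MEP1+CMC, 16.6 in MEP1+Metformin, 16.0 in MEP1+Rapamycin and 17.4 in MEP1+Metformin+Rapamycin TMM CPM. It fell by 1.28 on the log2 scale (SE 0.24, adjusted p 0.012), with every transferred library below the naive control.

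Other members were near the threshold of the same test and did not pass it. Hif1a (chr12:73901375-73947530, plus strand), the oxygen-sensitive factor that activates many of these genes, stood at 90.5 in the naive control, 180.0 in No treatment, 224 in MEP1+CMC, 225 in MEP1+Metformin, 122 in MEP1+Rapamycin and 164 in MEP1+Metformin+Rapamycin TMM CPM, with a log2 fold change of 1.02 (SE 0.34, adjusted p 0.07). The lactate carrier Slc16a1 had -0.70 (SE 0.22, adjusted p 0.057) from 39.5 TMM CPM in the naive control against 20.6 to 29.7, and Pdk1 had -0.69 (SE 0.22, adjusted p 0.057) from 171 against 88.8 to 126. Eno2, the neuronal enolase, had 1 count in the naive control and 4 to 152 in the others, so that its log2 ratio for No treatment, 3.01 (0.40 to 8.37), has a wide interval. In 18 of the 37 genes all 5 transferred libraries lay on 1 side of the naive control, as did 67.5% of all genes. The higher 5 were Hk2, Eno2, Hif1a, Pfkfb1 and Pfkfb3, and the lower 13 were Eno1, Pdk2, Pdk1, Slc16a1, Slc16a3, Mpc1, Pkm, Ldha, Gpi1, Pdha1, Dld, Pfkl and Aldoa.

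These directions depend on how libraries were scaled. The TMM factor was 0.716 in the naive control and 0.997 to 1.13 in the others. With library totals in place of TMM, the median of all genes in No treatment against the naive control moved from 0.03 to 0.51 and that of the 37 genes from -0.08 to 0.40. Under every scaling tried, Hk2, Eno2, Hif1a and Pfkfb1 kept all 5 transferred libraries above the naive control, and Eno1 and Pdk2 kept them below. The other 12 did not. With library totals the model called 6 genes, all higher (Hk2, Hif1a, Pfkp, Pgk1, Pfkfb3 and Pgam1), and no longer called Eno1 or Pdk2. Without the No treatment library, the one with most macrophage marker counts, it called 7, of which Hk2 rose and Eno1, Pdk1, Pdk2, Pkm, Ldha and Mpc1 fell.

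**Figure D3:**
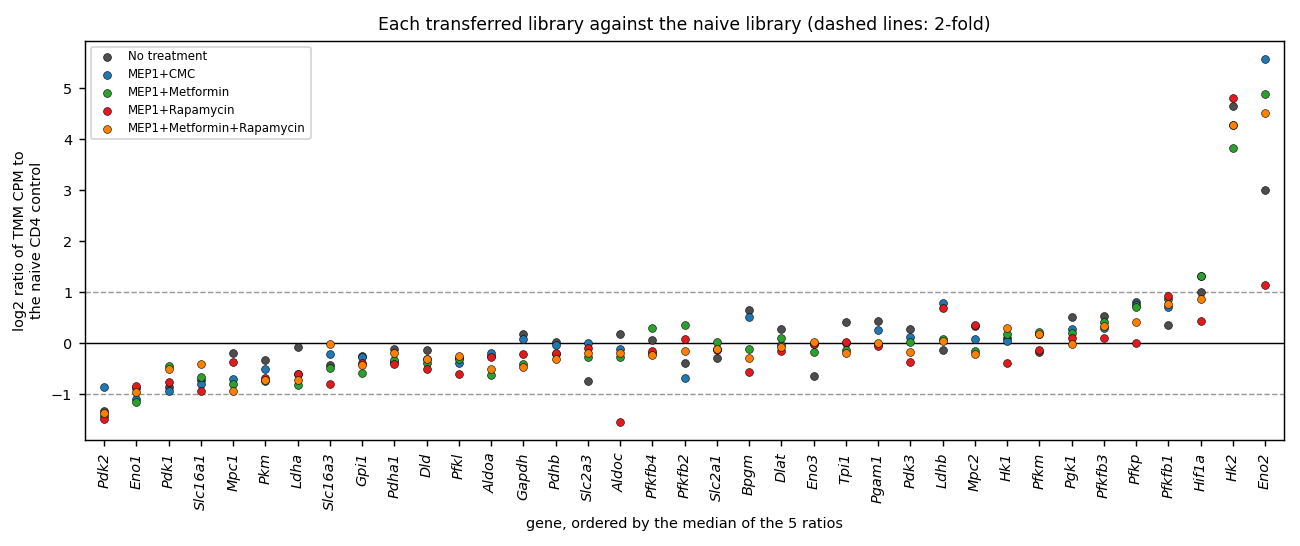
Log2 ratio of each transferred library to the naive CD4 control for the 37 genes, on TMM CPM, ordered by the median of the 5 ratios, with dashed lines at 2-fold. Pdk2 and Eno1 lie below 0 in all 5 libraries, and Hk2, Eno2 and Hif1a above it.

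The second contrast asks how cells differed on day 63 after the 2 rounds of MEP1 on days 28 and 35. Each round was followed by injections of vehicle or inhibitor, and No treatment had neither MEP1 nor injections then. Peptide and injections therefore cannot be told apart in it. In MEP1+CMC against No treatment, 1 of the 37 genes passed the size rule, Eno2 at 2.56 (1.96 to 3.22), against 12.2% of all genes, and the median of the 37 was -0.10 beside 0.01 over all genes. The largest ratios among abundant members ran in opposite directions at the lactate step. Ldha (chr7:46841475-46855627, plus strand) stood at 1699 in the naive control, 1611 in No treatment, 1114 in MEP1+CMC, 967 in MEP1+Metformin, 1114 in MEP1+Rapamycin and 1031 in MEP1+Metformin+Rapamycin TMM CPM. Its level was high in the naive control and No treatment and lower in all 4 libraries given MEP1 on days 28 and 35, with a log2 ratio of -0.53 (-0.55 to -0.52) for MEP1+CMC. Ldhb (chr6:142490249-142507957, minus strand) stood at 32.0 in the naive control, 29.0 in No treatment, 54.9 in MEP1+CMC, 33.9 in MEP1+Metformin, 51.9 in MEP1+Rapamycin and 33.0 in MEP1+Metformin+Rapamycin, with 0.92 (0.84 to 1.01) for MEP1+CMC. Ldhb was clearly above No treatment in MEP1+CMC and MEP1+Rapamycin and only slightly above it in both metformin libraries.

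Neither glucose transporter gene passed the size rule in this pair. Slc2a3 (chr6:122727809-122801640, minus strand) stood at 49.9 in the naive control, 30.0 in No treatment, 50.2 in MEP1+CMC, 41.4 in MEP1+Metformin, 46.6 in MEP1+Rapamycin and 43.7 in MEP1+Metformin+Rapamycin TMM CPM, with a log2 ratio of 0.74 (0.66 to 0.83) for MEP1+CMC. No treatment was the lowest of the 6 libraries. Slc2a1 stood at 71.0 in the naive control, 58.0 in No treatment, 65.6 in MEP1+CMC, 71.6 in MEP1+Metformin, 64.7 in MEP1+Rapamycin and 65.7 in MEP1+Metformin+Rapamycin, a range of 1.23-fold over the 5 transferred libraries. Triose phosphate isomerase (Tpi1) was 106 in No treatment and 69.3 to 80.4 in the other transferred libraries, and the pyruvate carrier subunit Mpc1 was 59.5 against 35.7 to 52.5.

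With the 4 libraries given MEP1 on days 28 and 35 set against No treatment, edgeR called none of the 37 genes, against 1.25% of all genes. At an unadjusted p below 0.05 there were 3: Slc2a3 at 0.60 (SE 0.19, adjusted p 0.16), Tpi1 at -0.49 (SE 0.16, adjusted p 0.18) and Ldha at -0.61 (SE 0.21, adjusted p 0.21). DESeq2 called 2 of them, Ldha lower and Slc2a3 higher, at adjusted p 0.0063 and 0.048. All 4 libraries lay on 1 side of No treatment in 23 of the 37 genes, beside 57.5% of all genes. Under every scaling tried, 14 kept this: Slc2a3, Ldhb, Eno3 and Pfkfb1 were higher, and Ldha, Gapdh, Pkm, Pgk1, Tpi1, Pgam1, Aldoc, Bpgm, Pdk3 and Mpc1 were lower. No treatment is also the library with the most macrophage marker counts (3424 TMM CPM against 661 to 890), and 10 of the 15 macrophage markers were called lower in this model.

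The rapamycin comparison was made in a pair without metformin and a pair with it, which share no library. In MEP1+Rapamycin against MEP1+CMC, 3 of the 37 genes passed the size rule, all lower, against 11.9% of all genes: Aldoc, Bpgm and Eno2. In MEP1+Metformin+Rapamycin against MEP1+Metformin none did, against 3.12% of all genes, and all 37 were within 1.5-fold, beside 91.0% of all genes. By the same rule all 6 B cell markers and all 3 neutrophil markers that passed the filter were higher in the library with both inhibitors in this pair, and 4 of 5 ribosomal RNA-like loci were higher in MEP1+Rapamycin than in MEP1+CMC. Of the 6 CD8 T cell and NK cell markers kept, 2 were higher and 2 lower in the pair without metformin. In the pair with it, 1 was higher and 1 lower. Klrb1c was lower in both pairs, at -3.16 and -3.48. Its rapamycin term in the edgeR model given below was -3.32 (SE 0.47, adjusted p 0.00998). The part of these markers and loci in the results was not tested. The medians of the 37 were -0.14 and -0.04, beside 0.03 and 0.01 over all genes. The intervals of both pairs excluded no change in 1 direction for 10 of the 37 genes, beside 27.1% of all genes. Eno1 and Hk2 were higher and Hif1a, Pfkp, Bpgm, Pdk3, Pgk1, Gapdh, Pdhb and Dlat lower, a direction that each kept in both pairs under every scaling tried.

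Hif1a and Pfkp had the largest ratios that both pairs shared among well-counted members. Hif1a, whose level in each library is given above, had log2 ratios of -0.88 (-0.93 to -0.83) without metformin and -0.46 (-0.50 to -0.42) with it. Both libraries given rapamycin lay below all 3 other transferred libraries and above the naive control. Pfkp (chr13:6579768-6648777, minus strand) stood at 160.2 in the naive control, 282 in No treatment, 269 in MEP1+CMC, 263 in MEP1+Metformin, 159.7 in MEP1+Rapamycin and 215 in MEP1+Metformin+Rapamycin TMM CPM. Its log2 ratios were -0.75 (-0.80 to -0.71) and -0.29 (-0.33 to -0.26), the rapamycin libraries again being the lowest of the transferred ones, with MEP1+Rapamycin level with the naive control. Pdk3, an X-linked kinase of pyruvate dehydrogenase, was 33.0 in MEP1+CMC and 23.3 in MEP1+Rapamycin, then 30.6 in MEP1+Metformin and 26.9 with both inhibitors.

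In the additive model of the 4 libraries given MEP1 on days 28 and 35, the rapamycin term called none of the 37 genes with edgeR, against 0.232% of all genes, and none with DESeq2. The term has 1 residual degree of freedom. At an unadjusted p below 0.05 edgeR had 3 and DESeq2 had 4. The edgeR terms were -0.67 (SE 0.16, adjusted p 0.18) for Hif1a, -0.52 (SE 0.17, adjusted p 0.48) for Pfkp and -0.63 (SE 0.23, adjusted p 0.61) for Bpgm. These directions therefore hold in both pairs and did not pass the test over all genes.

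Bpgm (chr6:34476207-34505613, plus strand) encodes bisphosphoglycerate mutase, best known from red blood cells. Its level was 32.4 in the naive control, 50.7 in No treatment, 46.5 in MEP1+CMC, 30.0 in MEP1+Metformin, 22.0 in MEP1+Rapamycin and 26.4 in MEP1+Metformin+Rapamycin TMM CPM, high in No treatment and MEP1+CMC and low in the 3 libraries given an inhibitor. The rapamycin ratios were -1.08 (-1.20 to -0.96) and -0.18 (-0.29 to -0.08). The erythroid and platelet markers, of which 9 of 10 have a symbol in the tables, summed to 1621 TMM CPM in No treatment, 356 in MEP1+CMC, 56.04 in MEP1+Metformin, 103 in MEP1+Rapamycin, 55.0 in MEP1+Metformin+Rapamycin and 386 in the naive control. Of the 7 that passed the filter, 6 were lower in MEP1+Rapamycin than in MEP1+CMC by the size rule, and their part in the Bpgm difference was not tested. Aldoc, a minor aldolase, stood at 3.52 in the naive control, 3.97 in No treatment, 3.25 in MEP1+CMC, 2.90 in MEP1+Metformin, 1.21 in MEP1+Rapamycin and 3.09 in MEP1+Metformin+Rapamycin. It was lowest in MEP1+Rapamycin, on 41 counts, at -1.42 (-1.95 to -0.93), and its other rapamycin ratio was 0.09 (-0.23 to 0.42), so only 1 of the pairs shows it.

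**Figure D4:**
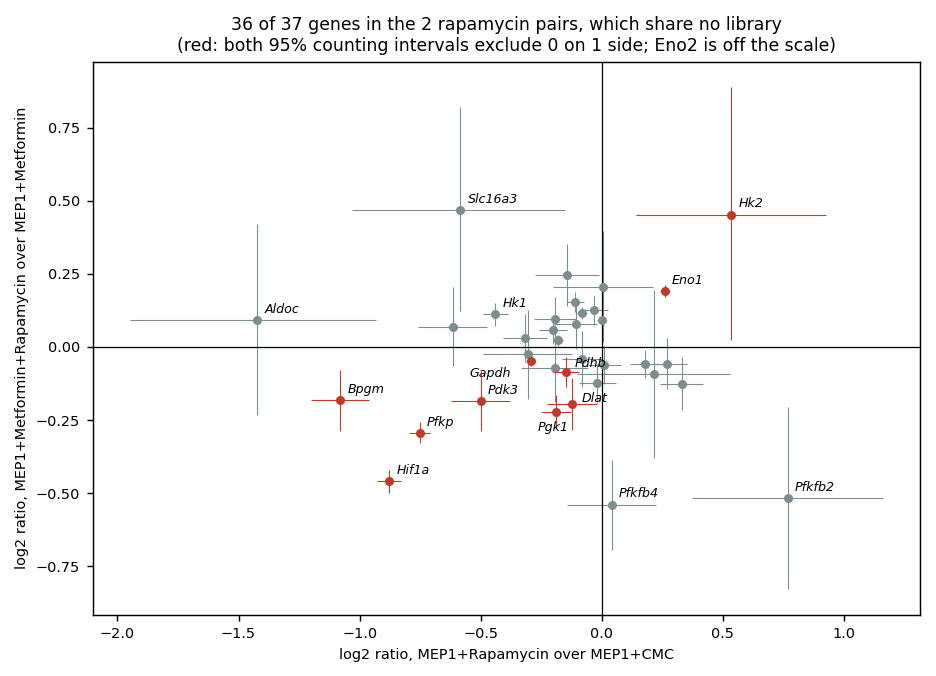
Log2 ratio of 36 of the 37 genes in MEP1+Rapamycin over MEP1+CMC (x axis) and in MEP1+Metformin+Rapamycin over MEP1+Metformin (y axis), with exact 95% counting intervals as bars. Red points are genes whose intervals exclude 0 on 1 side in both pairs; Hif1a at -0.88 and -0.46 and Pfkp at -0.75 and -0.29 lie lower left, and Eno2, at -4.43 and -0.38, is off the scale.

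Metformin was compared in the same way, against MEP1+CMC and, among mice given rapamycin, against MEP1+Rapamycin. In MEP1+Metformin against MEP1+CMC, 1 of the 37 genes passed the size rule, Pfkfb2 at 1.05 (0.71 to 1.40), against 5.88% of all genes. In MEP1+Metformin+Rapamycin against MEP1+Rapamycin, 2 passed, Aldoc at 1.35 (0.85 to 1.88) and Eno2 at 3.37 (1.94 to 5.28), against 6.98% of all genes. The medians of the 37 were -0.11 and 0.05, beside -0.01 and -0.03 over all genes. Pfkfb2, which makes and degrades fructose 2,6-bisphosphate, stood at 3.04 in the naive control, 2.33 in No treatment, 1.89 in MEP1+CMC, 3.91 in MEP1+Metformin, 3.22 in MEP1+Rapamycin and 2.74 in MEP1+Metformin+Rapamycin TMM CPM. Its ratio in the second pair was -0.23 (-0.60 to 0.13), so the first pair's direction was not seen there. The 6 B cell markers were all higher by the rule in the second pair, and 4 were lower in the first. Eno2 stood at 0.0534 in the naive control, 0.430 in No treatment, 2.54 in MEP1+CMC, 1.59 in MEP1+Metformin, 0.118 in MEP1+Rapamycin and 1.22 in MEP1+Metformin+Rapamycin, and MEP1+Rapamycin, with 4 counts, was the lowest of the transferred libraries.

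The intervals of both metformin pairs excluded no change in 1 direction for 19 of the 37 genes, beside 33.8% of all genes; abundant genes have narrow intervals, and 17 of the 37 are at or above percentile 80 of the genes kept by RPKM. Under every scaling tried 11 kept the direction in both pairs. Higher with metformin were Hk1, Pfkl, Slc16a1, Pdk1 and Pfkfb3. Lower were Ldhb, Aldoa, Gapdh, Tpi1, Hk2 and the pyruvate carrier subunit Mpc2. Ldhb had the largest paired ratios, -0.69 (-0.78 to -0.61) without rapamycin and -0.65 (-0.75 to -0.56) with it, from 54.9 and 51.9 TMM CPM without metformin to 33.9 and 33.0 with it. Pdk1, which stood at 171 in the naive control, 94.1 in No treatment, 88.8 in MEP1+CMC, 126 in MEP1+Metformin, 100.4 in MEP1+Rapamycin and 121 in MEP1+Metformin+Rapamycin, had 0.50 (0.45 to 0.56) and 0.27 (0.21 to 0.33). Gapdh, the oxidising step of glycolysis, stood at 1185 in the naive control, 1349 in No treatment, 1257 in MEP1+CMC, 890.3 in MEP1+Metformin, 1026 in MEP1+Rapamycin and 861 in MEP1+Metformin+Rapamycin and had -0.50 (-0.51 to -0.48) and -0.25 (-0.27 to -0.23). Hk1 stood at 166 in the naive control, 178 in No treatment, 172 in MEP1+CMC, 188 in MEP1+Metformin, 127 in MEP1+Rapamycin and 203 in MEP1+Metformin+Rapamycin, where MEP1+Rapamycin is the low library, and its ratios were 0.13 (0.09 to 0.17) and 0.68 (0.63 to 0.73).

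The metformin term of the additive model called none of the 37 genes with edgeR, against 0.0928% of all genes. At an unadjusted p below 0.05 there were 4: Ldhb at -0.67 (SE 0.16, adjusted p 0.21), Pdk1 at 0.39 (SE 0.15, adjusted p 0.36), Mpc2 at -0.40 (SE 0.16, adjusted p 0.37) and Hk1 at 0.40 (SE 0.17, adjusted p 0.41). DESeq2 called none and gave an adjusted p for 14 of the 37, with 4 at an unadjusted p below 0.05. Set against MEP1+CMC, the library with both inhibitors had 1 of the 37 past the size rule, Eno2 at -1.06 (-1.49 to -0.64), against 6.86% of all genes, and a median of -0.11 beside 0.00 over all genes.

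**Figure D5:**
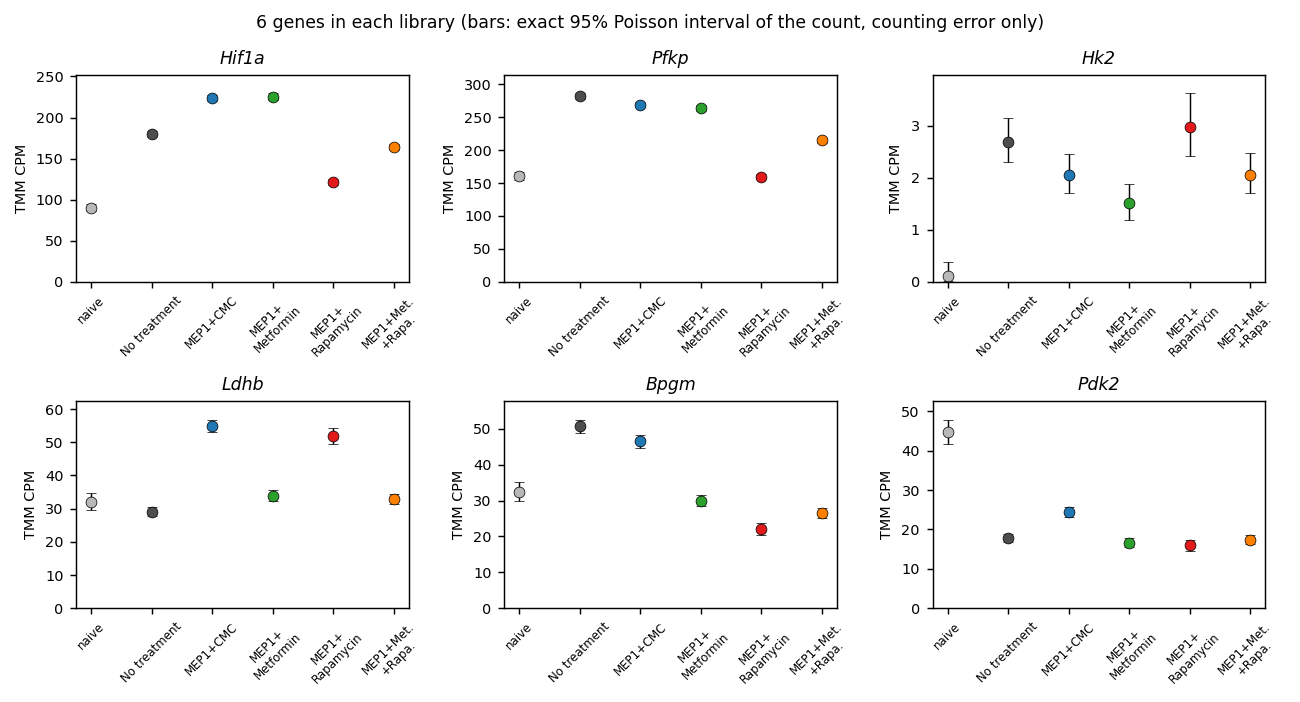
TMM CPM of Hif1a, Pfkp, Hk2, Ldhb, Bpgm and Pdk2 in each library, with axes from 0 and bars for the exact 95% Poisson interval of the count, which covers counting error only. Hif1a and Pfkp are lower in both rapamycin libraries than in the other transferred libraries, and Ldhb is higher in MEP1+CMC and MEP1+Rapamycin than in the other 4.

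With the main scaling, filter and libraries, several members passed the size rule in none of the 7 pairs and were not called by edgeR. They were Gpi1, Aldoa, Pkm, Pgk1, Pgam1 and the genes of pyruvate dehydrogenase subunits and pyruvate carrier. Of these, edgeR called Pgk1, Pgam1, Pkm and Mpc1 only under other settings, as given above. Glucose-6-phosphate isomerase (Gpi1) stood at 376 in the naive control, 316 in No treatment, 312 in MEP1+CMC, 249.9 in MEP1+Metformin, 289 in MEP1+Rapamycin and 278 in MEP1+Metformin+Rapamycin TMM CPM. Aldoa stood at 996 in the naive control, 835 in No treatment, 868 in MEP1+CMC, 645 in MEP1+Metformin, 820.3 in MEP1+Rapamycin and 699.6 in MEP1+Metformin+Rapamycin. Both were highest in the naive control and lowest in MEP1+Metformin. Pkm, the last step of glycolysis, stood at 1372 in the naive control, 1095 in No treatment, 962 in MEP1+CMC, 820.1 in MEP1+Metformin, 849 in MEP1+Rapamycin and 833 in MEP1+Metformin+Rapamycin, with the same highest and lowest libraries. Phosphoglycerate kinase (Pgk1, X-linked) was 86.8 to 127 and phosphoglycerate mutase (Pgam1) 43.0 to 61.1, each highest in No treatment. The pyruvate dehydrogenase subunits ranged from 111 to 147 for Pdha1, from 114 to 141 for Pdhb, from 34.4 to 46.2 for Dlat and from 47.2 to 67.3 for Dld. Mpc1 and Mpc2 form the mitochondrial pyruvate carrier. Mpc1 stood at 68.1 in the naive control, 59.5 in No treatment, 41.8 in MEP1+CMC, 38.9 in MEP1+Metformin, 52.5 in MEP1+Rapamycin and 35.7 in MEP1+Metformin+Rapamycin, Mpc2 at 45.6 in the naive control, 57.8 in No treatment, 48.3 in MEP1+CMC, 40.9 in MEP1+Metformin, 58.2 in MEP1+Rapamycin and 39.3 in MEP1+Metformin+Rapamycin, and both were lower with metformin added to rapamycin, at -0.56 (-0.65 to -0.47) and -0.57 (-0.66 to -0.48).

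The remaining members did not pass the size rule in any of the 7 pairs in the main setting either. Slc16a1 stood at 39.5 in the naive control, 23.9 in No treatment, 22.7 in MEP1+CMC, 25.0 in MEP1+Metformin, 20.6 in MEP1+Rapamycin and 29.7 in MEP1+Metformin+Rapamycin TMM CPM and Pfkfb3 at 17.4 in the naive control, 25.1 in No treatment, 21.3 in MEP1+CMC, 23.3 in MEP1+Metformin, 18.6 in MEP1+Rapamycin and 22.1 in MEP1+Metformin+Rapamycin. Slc16a1 was highest in the naive control, whereas Pfkfb3 was lowest there. Pfkl stood at 161 in the naive control, 131 in No treatment, 122 in MEP1+CMC, 130.1 in MEP1+Metformin, 106 in MEP1+Rapamycin and 135 in MEP1+Metformin+Rapamycin. The muscle forms Pfkm and Eno3 stood at 10.3 to 13.4 and 5.87 to 9.32, and Pfkfb4 at 10.8 to 15.6. Pfkfb1 was 2.19 to 4.14 and Slc16a3, the lactate exporter of highly glycolytic cells, 1.83 to 3.20.

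Other genes of the pathway and its regulators were taken from lists. Of 26 further glycolysis and pyruvate genes 19 passed the filter, and in No treatment against the naive control 2 were higher and 1 lower by the size rule: Hk3, a myeloid hexokinase, at a log2 ratio of 3.08, the transporter Slc2a6 at 1.83, and the D-lactate dehydrogenase Ldhd at -2.37. Slc2a6 and Ldhd were also the list's genes past the rule in both rapamycin pairs. Slc2a6 stood at 0.641 in the naive control, 2.28 in No treatment, 2.28 in MEP1+CMC, 2.30 in MEP1+Metformin, 0.650 in MEP1+Rapamycin and 1.06 in MEP1+Metformin+Rapamycin TMM CPM, with ratios of -1.81 and -1.12. Ldhd stood at 6.09 in the naive control, 1.17 in No treatment, 1.22 in MEP1+CMC, 2.12 in MEP1+Metformin, 5.52 in MEP1+Rapamycin and 5.14 in MEP1+Metformin+Rapamycin, with 2.18 and 1.27. For both genes the rapamycin libraries were the transferred libraries closest to the naive control. No gene of this list was called in any of the 4 models.

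Of 20 HIF regulators and targets outside glycolysis 17 passed the filter, and 4 were higher in No treatment than in the naive control, Rora and Egln3 by the most. Egln3, a prolyl hydroxylase that marks HIF-1 for degradation and is itself induced by it, stood at 3.04 in the naive control, 23.8 in No treatment, 19.4 in MEP1+CMC, 17.0 in MEP1+Metformin, 6.47 in MEP1+Rapamycin and 7.64 in MEP1+Metformin+Rapamycin TMM CPM. It passed the rule in both rapamycin pairs, at -1.59 and -1.15, and was the list's 1 gene called in the rapamycin term, where it fell by 1.37 on the log2 scale (SE 0.25, edgeR adjusted p 0.043). Rora stood at 7.05 in the naive control, 70.4 in No treatment, 67.0 in MEP1+CMC, 66.6 in MEP1+Metformin, 48.7 in MEP1+Rapamycin and 52.7 in MEP1+Metformin+Rapamycin. In the model of transferred cells against naive, Rora and Egln1 rose and Egln2 fell, and the list's median was 0.09. Among 11 other factors known to act on glycolysis genes, 3 were higher and 2, Txnip and Myc, lower in No treatment than in the naive control. The log2 ratio was 1.80 for Arrdc4 and, for Irf4, a factor of activated T cells, 1.79. Across the 5 transferred libraries Arrdc4, Irf4 and Foxk2 rose and Myc and Max fell. None of this list was past the rule in both rapamycin or both metformin pairs.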

How the data were processed

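RNA was sequenced from 6 libraries of sorted mouse spleen CD4 T cells, 1 per condition; the labels name an ultra-low library preparation. The authors deposited raw read counts per gene, whole numbers without normalization. The submitters' processing notes name Trimmomatic 0.36, STAR 2.5.2b, and featureCounts with Subread 1.5.2, and the build GRCm38. Strand setting, annotation release and the handling of multi-mapped reads: not given in the sources used here. Symbols came from GENCODE M21 and matched 48970 of 49315 identifiers.

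Genes were kept at 2 CPM of the library total or more and at least 10 counts in at least 1 library, which left 12928. TMM factors (edgeR 4.0.16, R 4.3.3) were computed on these genes. Computed before the filter, they moved the median of all genes in several pairs and served as an alternative chosen after seeing the data. RPKM divides TMM CPM by exonic kilobases from the files. Each pair of libraries got a TMM log2 ratio with an exact 95% Clopper-Pearson interval (scipy 1.17.1) and a size rule of 2-fold. A count of 0 was set to a floor of 3. Intervals reflect counting error alone; reads carried no molecular identifiers and so may repeat a molecule.

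The edgeR quasi-likelihood fits (glmQLFit and glmQLFTest, robust) used Benjamini-Hochberg adjustment over 12928 genes. Each SE printed is the absolute log2 fold change over the square root of its F statistic and is not an output of the fit. Libraries on 1 side stood in as replicates, so their spread includes treatment differences. A side with 1 library was taken to vary as the other side does. The p-values speak for the spread among these 6 libraries, which may be technical. On simulated data, 56% of 200 genes changed 4-fold were recovered for transferred against naive, 81% for MEP1 against No treatment, 95.5% for the rapamycin term and 98.5% for the metformin term. Those simulations used 1 common dispersion per model and changed only well-counted genes. They do not show how many smaller changes, or changes in genes with few counts, would be recovered. DESeq2 1.42.0 was an alternative. Pseudogene copies were found with blastn 2.17.0, and promoters came from a RefSeq table on GRCm38.p6.

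Members and lists were chosen with earlier results of these data known. All 37 members are named. Full values are given for members past the size rule or called in a model in the main setting, for the most abundant member of most steps and for others the results turn on. Tpi1, Pgk1, Pgam1 and the pyruvate dehydrogenase subunits are given in part or as ranges. From the lists of pathway genes and regulators the text names genes past the rule in both rapamycin or both metformin pairs. The pair with the largest ratio in No treatment against the naive control is named too. So are genes called in a model or singled out after their values were seen. Cell type markers, sex-linked genes and ribosomal RNA-like loci are given mostly as sums, shares and counts. Only some of them are named, and some markers past the rule in both pairs are not.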

Additional observations from a re-analysis of the deposited data

Results flagged for a closer look

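Eno2, the neuronal enolase and the least abundant of the 37 genes, had opposite metformin ratios in the 2 pairs. Its log2 ratio was -0.68 without rapamycin (MEP1+Metformin against MEP1+CMC, 80 and 152 counts) and 3.37 with it (MEP1+Metformin+Rapamycin against MEP1+Rapamycin, 69 and 4 counts). The second ratio rests on 4 counts in MEP1+Rapamycin, and the difference between the ratios was not tested.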

How the results depend on the processing

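No condition has a second library, so no paired analysis was possible because no groups share 2 replicate numbers, and pairs of libraries could not be repeated with 1 left out. The metformin and rapamycin model has no residual degrees of freedom without 1 of its 4 libraries, so this was not run. No member's called ratio or fold change turned sign, but with library totals 3 medians of the 37 did. They went from -0.08 to 0.40 (all genes 0.51) in No treatment against the naive control, from -0.11 to 0.01 (all genes 0.11) in MEP1+Metformin against MEP1+CMC and from -0.11 to 0.00 (all genes 0.11) in MEP1+Metformin+Rapamycin against MEP1+CMC. Of 79 alternative values of log2 ratios that passed the size rule 71 kept their call and 8 fell under it, and of 32 alternative log2 fold changes 30 kept their call and 2 lost it: Eno1 (-0.40) and Pdk2 (-0.70) with library totals. Isozyme shares moved with reads in place of reads per length. In the phosphofructokinase, PFKFB and PDH kinase families the leading form then changed in some libraries. Members past the size rule in No treatment against the naive control went from 3 to 6 with library totals, 1 with the stricter filter of 10 CPM and 11 at 1.5-fold. In MEP1+CMC against No treatment they went from 1 to 0 with the stricter filter and 4 at 1.5-fold. In MEP1+Rapamycin against MEP1+CMC they went from 3 to 1 with the stricter filter, 7 at 1.5-fold and 1 at 3-fold. In MEP1+Metformin against MEP1+CMC they went from 1 to 0 with the stricter filter, 4 at 1.5-fold and 0 at 3-fold. In MEP1+Metformin+Rapamycin against MEP1+Rapamycin they went from 2 to 0 with the stricter filter, 5 at 1.5-fold and 1 at 3-fold. In MEP1+Metformin+Rapamycin against MEP1+CMC they went from 1 to 0 with library totals, 0 with the stricter filter, 3 at 1.5-fold and 0 at 3-fold. The stricter filter removes the least counted members. Members called in transferred against naive went from 3 (1 higher, 2 lower) to 6, all higher, with library totals, 7 with DESeq2 and 3 to 7 when 1 transferred library was left out, 7 being without No treatment. For MEP1 against No treatment DESeq2 called 2 in place of 0. The cause of these shifts was not tested. Over all genes the split of higher to lower calls in No treatment against the naive control moved from 2042 and 1061 to 3284 and 427 with library totals. In MEP1+Rapamycin against MEP1+CMC it moved from 957 and 581 to 713 and 741 with TMM before the filter. In MEP1+Metformin against MEP1+CMC it moved from 403 and 357 to 543 and 298 with library totals. In MEP1+Metformin+Rapamycin against MEP1+Rapamycin it moved from 308 and 595 to 425 and 425 with TMM before the filter. Depth limits Eno2 and Hk2 in the naive control, with 1 and 2 counts.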

Other observations

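The routes that draw on glycolysis or receive its pyruvate were also counted from lists. All 12 pentose phosphate pathway genes passed the filter. In edgeR's model of the 5 transferred libraries against the naive control 4 of them fell and none rose, against 18.3% of all genes called in either direction. The 4 were Pgls (log2 fold change -1.14, SE 0.22, adjusted p 0.013) and Pgd (-1.01, SE 0.19, adjusted p 0.013) of the oxidative branch, Tkt (-0.82, SE 0.17, adjusted p 0.017), a transketolase that returns carbon to glycolysis, and H6pd (-0.68, SE 0.18, adjusted p 0.036). All 17 genes of the TCA cycle passed the filter, and 2 fell in the same model: Idh2 (-0.996, SE 0.24, adjusted p 0.026) and Sdhc (-0.81, SE 0.18, adjusted p 0.022). These falls are on the TMM scale, and the values of these genes under other scalings are not given here. In this model the median log2 fold change of all genes was 0.08 with TMM and 0.66 with library totals. Eno1 and Pdk2, which fell in the same model, lost their call with library totals. No TCA cycle gene passed the size rule in any of the 7 pairs. In the pentose list 1 gene did, Rpia, which makes ribose 5-phosphate, at 1.32 in MEP1+Rapamycin against MEP1+CMC.

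Among 9 genes of the cytosolic NADH shuttles, Gpd1, the cytosolic glycerol 3-phosphate dehydrogenase, had 0 counts in the naive control and 0.887 to 3.14 TMM CPM in the transferred libraries. Its ratio in No treatment, 4.29, rests on the floor of 3 counts set in place of 0 in the naive control. Txnip, an inhibitor of glucose uptake that glucose and Myc regulate, stood at 967 in the naive control, 294 in No treatment, 369 in MEP1+CMC, 550.3 in MEP1+Metformin, 628 in MEP1+Rapamycin and 810.1 in MEP1+Metformin+Rapamycin TMM CPM. It was past the size rule at -1.72 in No treatment against the naive control and at 1.13 in MEP1+Metformin+Rapamycin against MEP1+CMC. Its lowest level was in No treatment. Myc stood at 110.1 in the naive control, 35.6 in No treatment, 30.0 in MEP1+CMC, 44.7 in MEP1+Metformin, 56.6 in MEP1+Rapamycin and 48.1 in MEP1+Metformin+Rapamycin, lowest in MEP1+CMC. Txnip was picked after its values were seen.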
